A study of Rattus norvegicus with 20 samples.

Results

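Endothelial and angiogenic genes were followed in rear-leg skeletal muscle of rats on 20 one-colour expression arrays, 5 per group. The 9 genes were Vegfa, Kdr, Flt1, Tek, Esm1, Aqp1, Thbd, Pecam1 and Vwf, taken by name, and their probe sets were those that the platform annotation pairs with that gene symbol alone. This gave 13 of the 8799 probe sets in the table, for 8 of the 9 genes, out of 4737 genes with such a probe set; Tek was not analysed here. The groups were diabetic rats given vanadyl sulfate (treated diabetic), untreated diabetic rats (diabetic), non-diabetic rats given vanadyl sulfate (treated normal) and untreated non-diabetic rats (normal). Vanadyl sulfate is a vanadium salt studied for insulin-like effects. The sources used here do not give the strain, sex or age of the rats, how they became diabetic, which leg muscle was sampled, or how much vanadyl sulfate they received and for how long. The labels do not say that the 5 replicates of a group came from separate animals, so the p-values measure the spread between these samples only.

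Capillaries run along every skeletal muscle fibre, and their endothelial cells carry oxygen, fuel and hormones to the fibre. Muscle fibres and other cells secrete VEGF-A, encoded by Vegfa, which acts on endothelial cells through the receptor kinases VEGFR2 (Kdr) and VEGFR1 (Flt1); VEGFR2 carries most of the growth signal and VEGFR1 binds VEGF-A tightly and signals weakly. Endocan, the secreted proteoglycan encoded by Esm1, is made by activated and sprouting endothelial cells and is known to be induced by VEGF-A. The other genes encode a capillary and red cell water channel (Aqp1), a thrombin-binding anticoagulant receptor (Thbd), a cell junction adhesion protein (Pecam1), the clotting factor carrier and platelet tether von Willebrand factor (Vwf), and the angiopoietin receptor Tie2 (Tek).

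The promoters of the secreted Esm1, of the ligand gene Vegfa and of the receptor gene Kdr are shown because the results set the ligand, its main receptor and a gene that the ligand induces beside each other. Each run is 5′ to 3′ on the plus strand and covers 250 bases before and 50 after the gene's start in RefSeq, build GRCr8. Promoters of 5 of the 9 genes were matched by symbol; Vegfa has 2 entries and the first is shown. Capitals mark matches to the TATA box letters TATAAA, the ETS factor core GGAAG, the GC box letters GGGCGG and the hypoxia response element core ACGTG, searched on both strands, so that a match on the minus strand reads as its reverse complement.
Vegfa chr9:22452604-22452903: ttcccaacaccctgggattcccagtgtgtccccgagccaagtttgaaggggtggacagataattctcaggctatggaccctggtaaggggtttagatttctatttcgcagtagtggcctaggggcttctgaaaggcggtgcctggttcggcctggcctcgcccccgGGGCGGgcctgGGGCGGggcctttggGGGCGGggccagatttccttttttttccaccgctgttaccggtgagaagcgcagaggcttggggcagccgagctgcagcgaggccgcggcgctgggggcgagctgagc
Kdr chr14:32571813-32572112: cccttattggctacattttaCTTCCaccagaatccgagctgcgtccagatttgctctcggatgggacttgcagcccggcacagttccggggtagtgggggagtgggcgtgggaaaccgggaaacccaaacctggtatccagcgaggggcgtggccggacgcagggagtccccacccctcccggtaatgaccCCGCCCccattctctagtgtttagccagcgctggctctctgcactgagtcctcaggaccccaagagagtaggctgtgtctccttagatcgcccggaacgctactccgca
Esm1 chr2:46609003-46609302: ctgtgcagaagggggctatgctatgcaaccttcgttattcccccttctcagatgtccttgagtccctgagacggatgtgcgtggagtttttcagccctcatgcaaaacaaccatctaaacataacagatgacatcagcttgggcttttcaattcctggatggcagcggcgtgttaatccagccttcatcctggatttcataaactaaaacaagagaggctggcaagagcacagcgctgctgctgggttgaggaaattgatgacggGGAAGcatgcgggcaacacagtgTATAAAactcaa

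The Esm1 window held 1 GGAAG at positions 266 to 270 and 1 TATAAA at positions 289 to 294, counted from 1 at the 5′ end. The Vegfa window held 3 GGGCGG matches on the plus strand, and the Kdr window held 1 GGAAG and 1 GGGCGG match, both on the minus strand. No motif overlapped another in these 3 windows. Among 33469 RefSeq promoters of the same length, 14.2% held TATAAA, 70.1% GGAAG, 33.1% GGGCGG and 19.3% ACGTG. The GC content was 63.3% in the Vegfa window, 61.0% in the Kdr window and 48.7% in the Esm1 window.

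All values below are signals on the linear scale that the authors deposited, and all changes are differences of log2(signal + 16), which understate the change of dim probe sets. Tests were run on probe sets brighter than the 40th percentile of their array, a level between 225 and 412, in at least 5 of the 20 arrays. This held for 11 of the 13 probe sets, which cover 7 genes, and for 6027 probe sets in all. Both Vwf probe sets stayed untested: U50044cds_g_at passed that level in 1 of 20 arrays and U50044cds_at in 0 of 20. Esm1, Aqp1, Flt1 and the brighter Thbd probe set passed it in all 20.

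The endothelial label was checked against 13 marker genes, of which 9 had a probe set and 8 could be tested; 7 of those 9 are genes described here, and the others are Nos3 and Icam2. Their summed signal ran between 15573 and 20226 in treated diabetic, 12749 and 24664 in diabetic, 11646 and 17367 in treated normal and 14710 and 26144 in normal muscle. These ranges overlap in every pair of groups. Aqp1, the brightest of these genes, gave a large part of the sums, such as 14153 of 26144 in normal replicate 4. The overlap of the sums is thus in large part that of Aqp1. The defining marker Vwf was dim throughout, and muscle fibre markers, all 8 of 8 bright in every array, summed to between 483822 and 2572040. In whole muscle, fewer endothelial cells and less RNA per endothelial cell cannot be told apart.

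Esm1 was high in diabetic muscle and low in the other 3 groups. Its probe set rc_AI233219_at read 4846, 3959, 3839, 5929 and 2471 in diabetic muscle, against 1256, 1260, 1145, 1072 and 597 in normal muscle. Every diabetic array was above every normal array. Esm1 rose 3.88-fold in diabetic over normal muscle, a log2 change of 1.96 ± 0.31 (SE, n = 5 per group; limma adjusted p = 0.00257). The exact permutation p of the same difference was 0.00794, the smallest that 5 against 5 arrays can give.

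Under vanadyl sulfate, Esm1 in diabetic rats lay near the level of normal rats. It read 583, 875, 855, 1171 and 1486 in treated diabetic muscle, and no value reached the lowest of the 5 untreated diabetic arrays. Esm1 fell 4.22-fold in treated diabetic against diabetic muscle, a log2 change of -2.08 ± 0.31 (SE, n = 5 per group; limma adjusted p = 0.00299), with an exact permutation p of 0.00794. The treated diabetic and normal arrays overlapped: the log2 difference was -0.12, with a 95% interval of -0.76 to 0.52 and an adjusted p of 0.883. Both called comparisons use the same 5 diabetic arrays, so they are not independent of each other.

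Normal rats given vanadyl sulfate had Esm1 signals of 1284, 587, 614, 545 and 715. All but 1 of these values were below all but 1 of the normal ones, and the groups overlapped. The log2 difference from normal muscle was -0.53 ± 0.31 (SE, n = 5 per group; adjusted p = 0.608). The interaction, the vanadyl sulfate difference in diabetic muscle less the one in normal muscle, was -1.55 ± 0.44 with an adjusted p of 0.143. It did not pass the test, so the 2 treatment differences are not shown to differ.

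**Figure D1:**
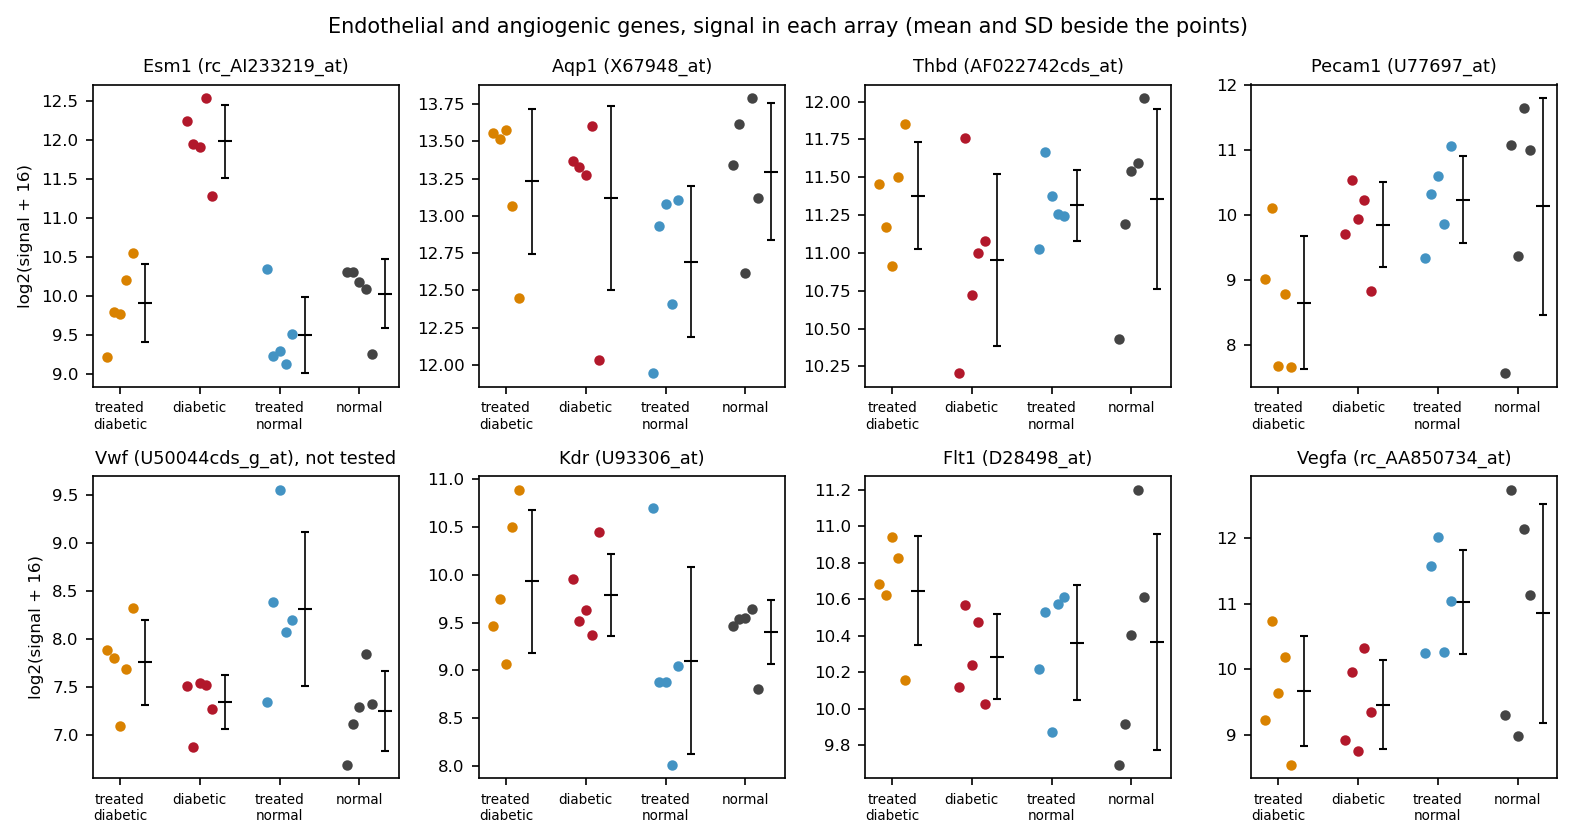
Log2(signal + 16) of the 8 endothelial and angiogenic genes with a probe set, 1 point per array with the mean and SD of each group of 5, with treated diabetic, diabetic, treated normal and normal muscle side by side. For Esm1 the 5 diabetic arrays, with signals of 2471 to 5929, stand above all arrays of the other 3 groups, which end at 1486.

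Among the 11 tested probe sets, Esm1 was the only one that passed in any of the 6 comparisons at an adjusted p under 0.05. In diabetic against normal muscle that is 1 of 11, where 1.83% of all tested probe sets passed (1.26% as higher), and 3 of 11 passed at an unadjusted threshold of 0.05, where 16.7% of all did, and 1 of 11 by exact permutation against 15.5%. In treated diabetic against diabetic muscle it is 1 of 11 against 0.498% of all (0.448% as lower), and 2 of 11 against 16.3% without adjustment; exact permutation gave 2 of 11 (Esm1 and the Vegfa probe set L20913_s_at) against 16.1%. Groups without overlap were seen for Esm1 alone: 1 of 11 in diabetic against normal muscle, where 5.09% of all probe sets did not overlap (3.33% as higher), and 1 of 11 in treated diabetic against diabetic muscle, where 4.45% did not (2.07% as lower). The adjusted calls and the groups without overlap are thus Esm1 alone. The unadjusted counts also include Vegfa probe sets, and several of the 11 probe sets belong to that gene. With so few members, these shares do not describe the list.

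In the other 4 comparisons limma called 0 of 11. For treated normal against normal muscle, 0.0664% of all probe sets were called, 0 of 11 members passed without adjustment against 9.23% of all, and exact permutation tests gave 0 of 11 under 0.05, against 8.28% of all. For treated diabetic against treated normal muscle, 0% of all were called, 4 of 11 passed without adjustment against 17.9%, and 3 of 11 by exact permutation against 16.1%. For treated diabetic against normal muscle, 0% of all were called, 2 of 11 passed without adjustment against 12.8%, and 0 of 11 by exact permutation against 5.56%. For the interaction, 0.166% of all were called and 1 of 11 members passed without adjustment against 13.3% of all. No member's groups were free of overlap in these comparisons, where 1.84%, 3.22% and 0.68% of all probe sets were so for treated normal against normal, treated diabetic against treated normal and treated diabetic against normal muscle.

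The median log2 change over the 7 tested genes, 1 probe set each, was -0.18 in diabetic against normal muscle, where the median of all tested probe sets was -0.06. It was 0.15 in treated diabetic against diabetic muscle, with 0.08 for all. Between diabetic and normal muscle their changes ran from a Vegfa value of -1.39 to the Esm1 value of 1.96, and both directions occurred.

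**Figure D2:**
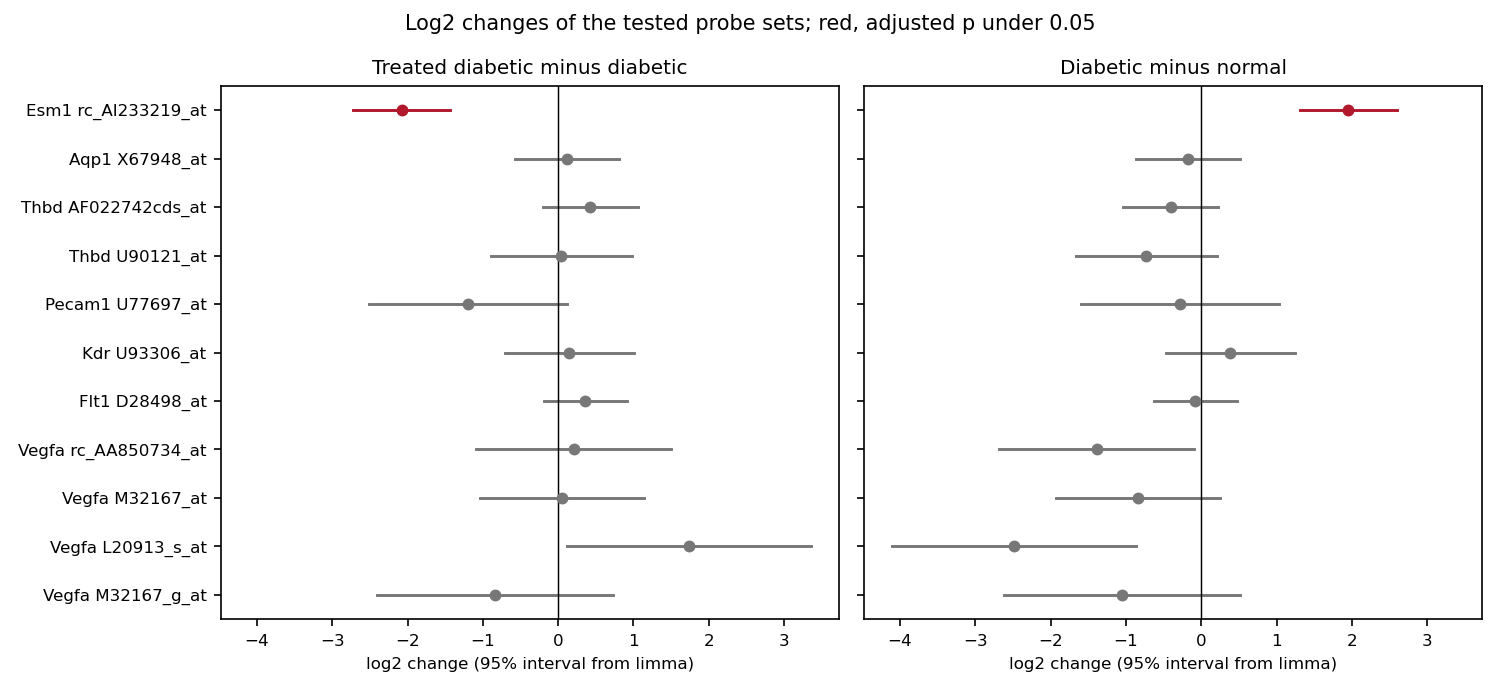
Log2 change of each tested probe set with its 95% interval, in treated diabetic against diabetic muscle (left) and diabetic against normal muscle (right). Esm1 is the only gene whose adjusted p passed 0.05, at -2.08 and 1.96, drawn in red.

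Vegfa, the ligand gene, had negative changes at all 4 probe sets in diabetic against normal muscle, and none passed the test. The brightest, rc_AA850734_at, read 470, 985, 417, 1272 and 636 in diabetic muscle and 614, 6791, 491, 4466 and 2219 in normal muscle. The groups overlapped: normal replicates 1 and 3 were as low as the diabetic arrays. The log2 change was -1.39 ± 0.62 (SE, n = 5 per group; adjusted p = 0.262). L20913_s_at, a probe set whose name ending marks sequence that can be shared by several transcripts, read 84.8, 226, 105, 608 and 148 in diabetic muscle and 763, 3435, 93.7, 2371 and 2342 in normal muscle. Here too normal replicate 3 was the low one, and the log2 change was -2.48 ± 0.78 (SE, n = 5 per group; adjusted p = 0.105). M32167_at and M32167_g_at gave -0.84 and -1.05 (adjusted p = 0.427 and 0.494). L20913_s_at was brighter than the 40th percentile in 1 of 5 diabetic arrays and in 4 of 5 arrays of each other group. Every change of L20913_s_at that involves diabetic muscle is thus set against a dim level. M32167_g_at passed that percentile in 1 diabetic, 1 treated diabetic, 4 treated normal and 3 normal arrays.

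The treatment left the Vegfa probe sets without a common direction. In treated diabetic muscle rc_AA850734_at read 588, 1690, 781, 1154 and 360, against the diabetic values given above, a log2 change of 0.21 ± 0.62. L20913_s_at read 862, 1177, 177, 789 and 752 in treated diabetic muscle, a change of 1.74 ± 0.78 over diabetic muscle (SE, n = 5 per group; adjusted p = 0.27; exact permutation p = 0.0317), while M32167_g_at gave -0.84 and M32167_at 0.05. In treated normal muscle rc_AA850734_at read 1198, 3035, 4104, 1210 and 2081, which lies within the range of normal muscle (log2 change 0.17 ± 0.62). Across the 20 arrays the 4 Vegfa probe sets correlated with one another at Pearson r between 0.50 and 0.85.

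Neither receptor gene passed the test in any comparison. Kdr (U93306_at) read 690, 844, 520, 1435 and 1884 in treated diabetic muscle, 978, 715, 778, 648 and 1385 in diabetic muscle, 1649, 453, 455, 242 and 512 in treated normal muscle, and 688, 726, 733, 785 and 432 in normal muscle. Its log2 change was 0.39 ± 0.41 in diabetic against normal muscle and 0.15 ± 0.41 in treated diabetic against diabetic muscle (SE, n = 5 per group; adjusted p = 0.666 and 0.881). Flt1 (D28498_at) ran between 1129 and 1949 in treated diabetic, 1027 and 1506 in diabetic, 922 and 1552 in treated normal and 813 and 2338 in normal muscle. Its changes were -0.08 ± 0.26 in diabetic against normal muscle and 0.36 ± 0.26 in treated diabetic against diabetic muscle. For these 2 receptor genes the 95% intervals in diabetic against normal muscle were -0.47 to 1.24 for Kdr and -0.63 to 0.47 for Flt1.

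Among the surface genes, Pecam1 (U77697_at) had its lowest median in treated diabetic muscle, with 499, 1089, 190, 426 and 187. It read 821, 1476, 964, 1189 and 439 in diabetic, 633, 1269, 1530, 914 and 2134 in treated normal and 174, 2152, 647, 3191 and 2025 in normal muscle, so that every pair of groups overlapped. The log2 difference of treated diabetic from treated normal muscle was -1.59 ± 0.63 (SE, n = 5 per group; adjusted p = 0.206), and it was -1.20 from diabetic muscle (adjusted p = 0.353) and -1.48 from normal muscle (adjusted p = 0.342). Aqp1 (X67948_at) ran between 5572 and 12197 in treated diabetic, 4177 and 12415 in diabetic, 3925 and 8787 in treated normal and 6252 and 14153 in normal muscle. It did not pass in any comparison: the log2 difference was -0.60 ± 0.33 in treated normal against normal muscle (SE, n = 5 per group; adjusted p = 0.588) and 0.54 ± 0.33 in treated diabetic against treated normal muscle (adjusted p = 0.4). Red cells also carry this channel, and the summed signal of 5 red cell markers ran between 31135 and 72391 in treated diabetic, 28529 and 58016 in diabetic, 5587 and 60884 in treated normal and 29156 and 89651 in normal muscle; its part in the Aqp1 values was not tested. The brighter Thbd probe set, AF022742cds_at, ran between 1910 and 3680 in treated diabetic, 1165 and 3457 in diabetic, 2073 and 3234 in treated normal and 1366 and 4143 in normal muscle, with overlap throughout. It gave -0.40 ± 0.30 in diabetic against normal muscle and 0.42 ± 0.30 in treated diabetic against diabetic muscle (adjusted p = 0.513 and 0.494). The dimmer one, U90121_at, gave -0.73 and 0.04 (adjusted p = 0.423 and 0.979). Vwf signals ended at 304 in treated diabetic, 227 in diabetic, 736 in treated normal and 213 in normal muscle over its 2 probe sets, and no difference was tested.

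The Vegfa and Pecam1 signals were lower in arrays with a higher value of an RNA quality measure. This measure is the log2 ratio of 3′ over 5′ signal of the beta-actin control probe sets, where a higher ratio means fewer full-length targets. Its median was 2.09 in treated diabetic, 1.97 in diabetic, 0.75 in treated normal and 0.63 in normal muscle. Over the 20 arrays, 11 relations were computed, 1 per tested probe set, with 100000 resamples each. For Vegfa rc_AA850734_at, Pearson r was -0.82 (permutation p = 4e-05, adjusted 0.00044) and Spearman rho was -0.83 (permutation p = 2e-05, adjusted 0.00011); leaving out treated diabetic replicate 1 and normal replicate 1, whose ratios lay farthest from the median, gave r = -0.83, and removing group means gave -0.78. For Pecam1, r was -0.77 (permutation p = 1e-04, adjusted 0.00055) and rho was -0.83 (permutation p = 1e-05, the smallest the resamples can give, adjusted 0.00011), with -0.71 without these 2 arrays and -0.75 with group means removed.

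Esm1 gave r = 0.27 (permutation p = 0.242, adjusted 0.267) and rho = 0.32 (permutation p = 0.172, adjusted 0.21), with 0.45 without the 2 arrays and 0.22 with group means removed. The other Vegfa probe sets, M32167_g_at, M32167_at and L20913_s_at, had r = -0.72, -0.48 and -0.45. The Thbd probe sets had -0.59 and -0.51, Kdr 0.49, Flt1 -0.28 and Aqp1 -0.22. Of these 8, M32167_g_at, both Thbd probe sets and Kdr had an adjusted permutation p for r under 0.05. For Spearman rho it was under 0.05 for M32167_g_at, M32167_at, L20913_s_at and Thbd U90121_at. M32167_at had rho = -0.52 (adjusted permutation p = 0.0353) and L20913_s_at had rho = -0.56 (adjusted permutation p = 0.0262). Kdr and Thbd AF022742cds_at had rho = 0.49 and -0.47, each with an adjusted permutation p of 0.0502. The part of RNA quality in the Vegfa and Pecam1 values was not tested.

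**Figure D3:**
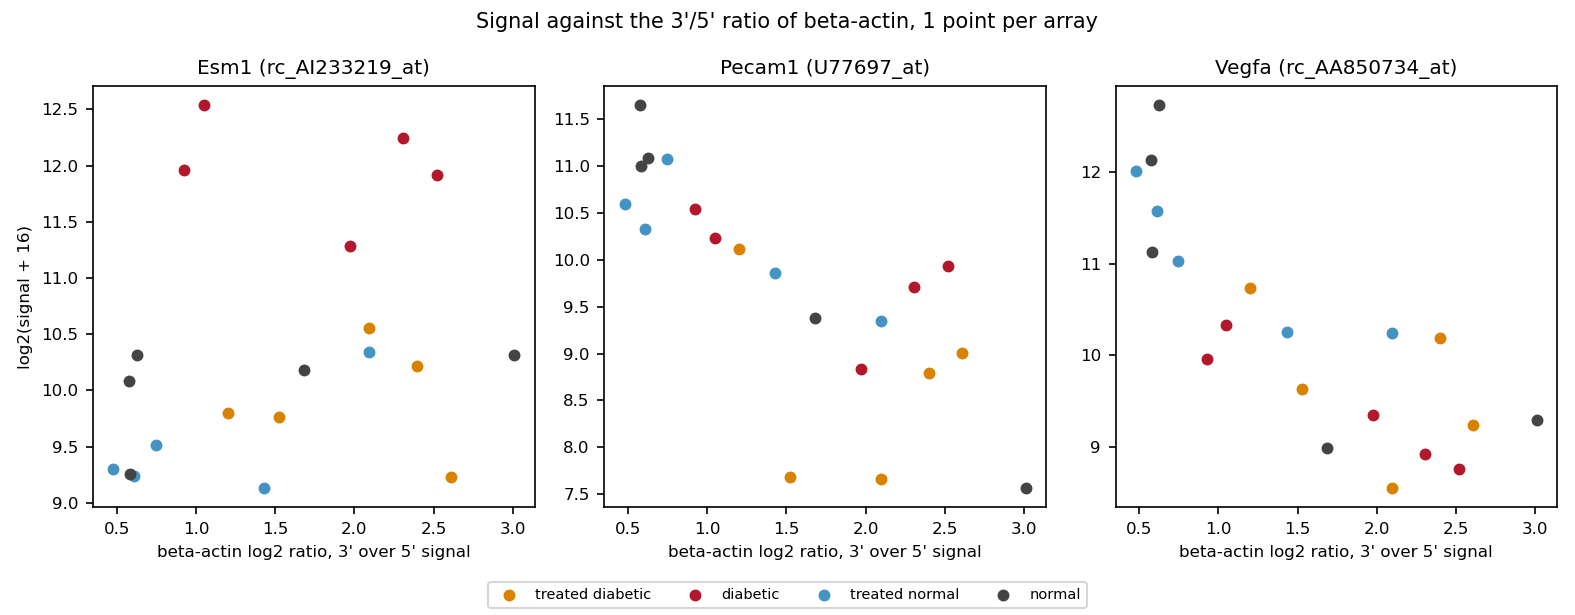
Log2 signal of Esm1, Pecam1 and Vegfa (rc_AA850734_at) against the beta-actin log2 ratio of 3′ over 5′ signal, 1 point per array, coloured by group. Vegfa and Pecam1 decline with the ratio (r = -0.82 and -0.77 over 20 arrays), and the 5 diabetic Esm1 points stand above the rest at every ratio.

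The Vegfa result depends on 3 arrays with a high Gapdh ratio of 3′ over 5′ signal, namely treated diabetic replicate 1 and normal replicates 1 and 3, at 3.94, 2.90 and 2.91. Without them, limma gave a log2 change of -2.53 for Vegfa rc_AA850734_at in diabetic against normal muscle (adjusted p = 0.012), -3.76 for L20913_s_at (adjusted p = 0.0037) and -2.45 for M32167_g_at (adjusted p = 0.019). In that smaller fit the beta-actin ratio no longer overlapped between the groups, with 0.93 to 2.52 in 5 diabetic arrays and 0.58 to 0.63 in 3 normal arrays, so RNA quality and group cannot be told apart there. With both the Gapdh and the beta-actin ratio as covariates, rc_AA850734_at gave -1.30 (adjusted p = 0.21). Esm1 kept its call in each of these fits, at 2.10 without the 3 arrays (adjusted p = 0.00305) and 1.70 with both covariates (adjusted p = 0.0381).

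The summed signal of leukocyte markers was also highest in diabetic muscle. The list of 12 had 10 genes with a probe set, and their summed signal ran between 9262 and 16567 in treated diabetic, 18484 and 86014 in diabetic, 11267 and 14151 in treated normal and 8306 and 13850 in normal muscle. The diabetic range overlapped no other. Of the 8 tested, 5 rose in diabetic against normal muscle, where 1.83% of all probe sets were called. The other 3 (Ptprc, Cd14 and Cd74) did not pass, and the change was negative for 1 of the 8. Lyz2, a macrophage lysozyme, rose by 2.58 (adjusted p = 0.00505), and Fcgr2b, Lgals3 and Ccl2 rose as well. Coro1a was called too, but it was brighter than the 40th percentile in 3 diabetic, 2 treated diabetic and 0 normal arrays, so it reached the test only with the diabetic arrays. In treated diabetic against diabetic muscle 3 of the 8 fell, Lyz2, Fcgr2b and Ccl2, where 0.498% of all probe sets were called. The defining markers Itgam and Csf1r stayed dim. The sums were highest in diabetic replicates 1 and 3, at 86014 and 82894, whereas Esm1 was highest in diabetic replicate 4, at 5929. Without diabetic replicates 1 and 3, Esm1 still differed by 1.89 in diabetic against normal muscle and by -2.01 in treated diabetic against diabetic muscle. However, the limma adjusted p values were then 0.0726 and 0.0688. Adipocyte markers, with 6 of 8 listed genes on the array, also summed higher in diabetic muscle, at 32149 to 52729. The sums were 23036 to 34553 in treated diabetic, 19017 to 24718 in treated normal and 14987 to 26415 in normal muscle. The treated diabetic range overlapped the diabetic one. Of the 5 tested, 3 (Cidea, Fabp4 and Lipe) rose in diabetic against normal muscle, where 1.83% of all probe sets were called. The change was negative for 1 of the 5, and the adipocyte marker Plin1 was dim in every array. The part of these cells in the Esm1 values was not tested. The calls of leukocyte and adipocyte markers, other than Fabp4, were not refitted with other settings or with arrays left out.

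The genes whose pattern was most like Esm1 were Ccl2, a monocyte-attracting chemokine (Pearson r = 0.86 over the 20 arrays), Decr1, an enzyme of fatty acid oxidation (0.85), Myh3, the embryonic myosin heavy chain (0.83), Lyz2 (0.83) and Fabp5, a fatty acid binding protein (0.81), out of 3578 genes compared. With group means removed these values were 0.43, 0.37, 0.42, 0.45 and 0.47. The likeness was thus lower within groups than across them.

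**Figure D4:**
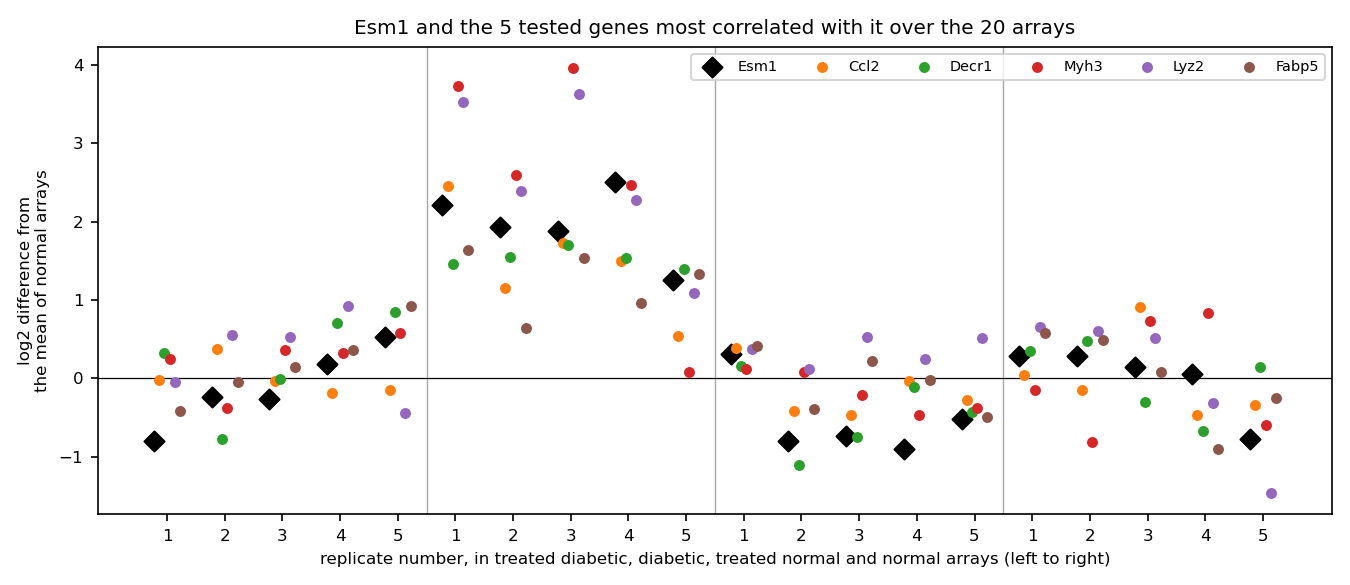
Log2 difference from the mean of the normal arrays for Esm1 (black diamonds) and the 5 tested genes most correlated with it over 20 arrays, 1 point per array. The highest value of each gene is in a diabetic array. Ccl2, Lyz2, Myh3 and Fabp5 are highest in diabetic replicates 1 and 3, Decr1 in diabetic replicate 3 and Esm1 in diabetic replicate 4.

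Other genes of the vascular programme were taken from lists chosen beside the members, with earlier results of these data known. The counts from these lists, given beside the share of all probe sets, are therefore descriptions and not tests of the lists. Of 28 tested angiogenic ligands, receptors and regulators (45 listed, 32 with a probe set), 3 rose in diabetic against normal muscle and 0 fell, where 1.83% of all probe sets were called; the list median was -0.06, the same as for all. Spp1, encoding the matrix cytokine osteopontin, read 1705, 1680, 1449, 2773 and 330 in diabetic and 287, 255.9, 31.7, 191 and 103 in normal muscle, without overlap; the fitted log2 change was 3.08 (adjusted p = 0.00374). It was brighter than the 40th percentile in 5 of 5 diabetic arrays, 1 of 5 normal arrays and 4 arrays outside the diabetic group in all, so it reached the test only through the group in which it was high, and its change is set against a dim level. In treated diabetic muscle it read 155, 132, 214, 291 and 346, 2 of them past that level; the fitted change against diabetic muscle was -2.53 (adjusted p = 0.0281), with an overlap through diabetic replicate 5. Thbs4, encoding the matrix protein thrombospondin-4, read 14769, 10894, 13592, 9466 and 14533 in diabetic and 3325, 2003, 3119, 4213 and 1700 in normal muscle, a change of 2.19 (adjusted p = 0.0146). It read 1089, 6434, 1623, 4619 and 5304 in treated diabetic muscle, below every diabetic array, a change of -2.01 (adjusted p = 0.0409).

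Notch1, a receptor that restrains sprouting, behaved differently. It read 2260, 2573, 2645, 2644 and 2691 in diabetic and 1581, 1273, 849, 1702 and 1247 in normal muscle, a change of 0.97 (adjusted p = 0.0244), and its values in treated diabetic and treated normal muscle were also above all normal ones. The changes from normal muscle were 1.01 in treated diabetic (adjusted p = 0.256) and 0.94 in treated normal muscle (adjusted p = 0.184), neither of which passed.

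In treated diabetic against diabetic muscle the counts were 2 of 28 angiogenic, 0 of 15 endothelial, 0 of 9 coagulation and 1 of 7 aquaporin genes, all lower, where 0.498% of all probe sets were called. None of these genes passed in the other 4 comparisons.

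In diabetic against normal muscle, where 1.83% of all probe sets were called, 1 of 15 tested endothelial genes (37 listed, 19 with a probe set) rose: Fabp4, a fatty acid binding protein of capillaries and adipocytes, by 1.86 (adjusted p = 0.0344). It read 20634, 9422, 16064, 14529 and 12231 in diabetic and 10475, 5362, 6216, 1657 and 1512 in normal muscle, with an overlap through normal replicate 1. Fabp4 is also one of the adipocyte markers above. Of 9 tested coagulation genes (17 listed, 11 with a probe set), 1 rose, the tissue plasminogen activator gene Plat, by 1.37 (adjusted p = 0.0433); it read 1915, 883, 1730, 1681 and 2574 in diabetic and 536, 1042, 731, 481 and 519 in normal muscle. Of 7 tested aquaporin genes, 1 rose, the glycerol channel gene Aqp7, by 1.18 (adjusted p = 0.0257), and it fell in treated diabetic against diabetic muscle (log2 change -1.23, adjusted p = 0.0387). Aqp7 read 2303, 697, 1047, 1578 and 985 in treated diabetic, 2699, 2754, 3086, 2717 and 3118 in diabetic and 1221, 1184, 1195, 1424 and 1261 in normal muscle. Its diabetic values stood above all values of both other groups, whereas Aqp1 of the endothelium did not pass in any comparison. Leaving out diabetic replicate 1 or 3 ended the calls of Thbs4, Notch1, Aqp7, Plat and Fabp4 in diabetic against normal muscle, and of Spp1, Thbs4 and Aqp7 in treated diabetic against diabetic muscle; the Spp1 call against normal muscle ended only without both. Of the 10 arrays left out in turn, 3 to 7 ended the Thbs4, Notch1, Aqp7, Plat and Fabp4 calls against normal muscle. For the calls against diabetic muscle it was 6 to 8, and no direction changed. With both 3′/5′ ratios as covariates, Thbs4, Notch1, Aqp7, Plat and Fabp4 lost their calls against normal muscle, and Spp1 kept its call. In that fit Thbs4 and Spp1 also lost their calls against diabetic muscle, and Aqp7 kept its call. The part of RNA quality in these values was not tested.

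**Figure D5:**
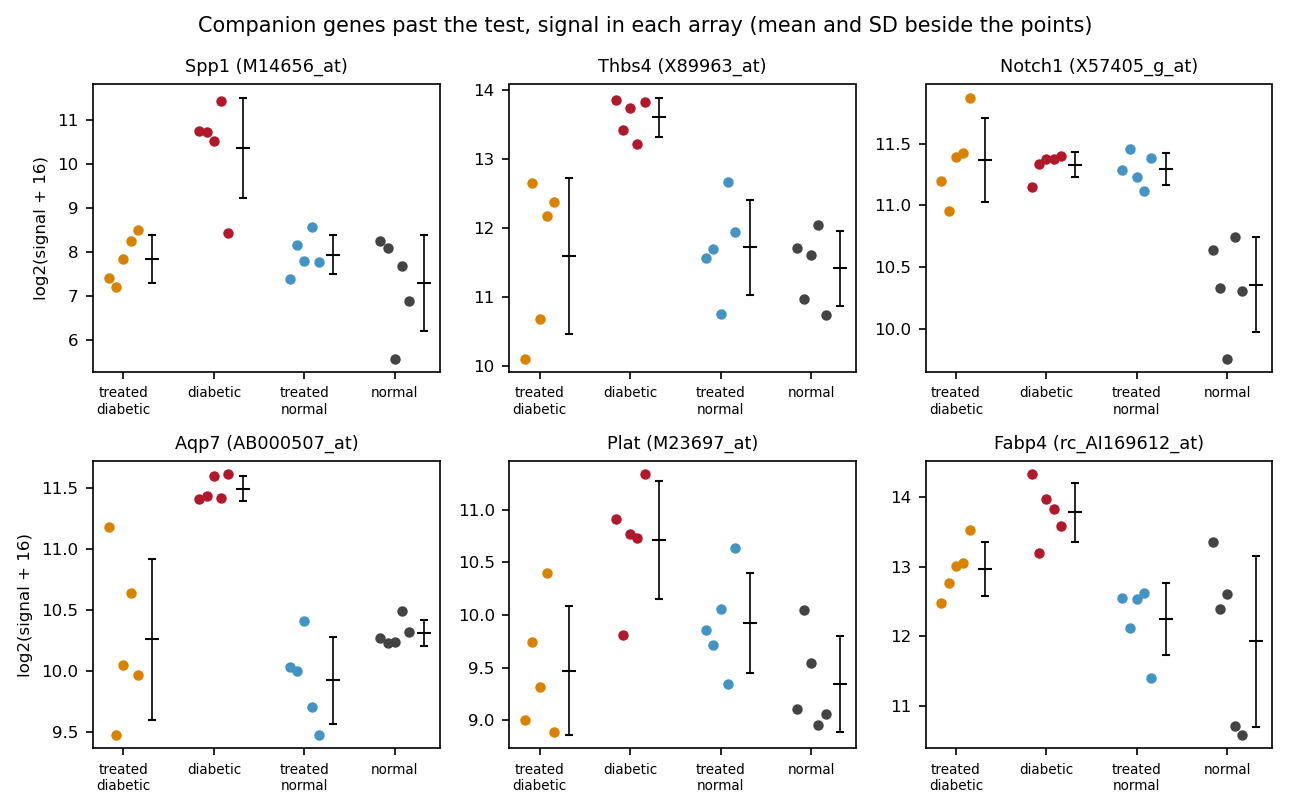
Log2(signal + 16) of the 6 further vascular genes that passed in diabetic against normal muscle, 1 point per array with the mean and SD of each group of 5, in treated diabetic, diabetic, treated normal and normal muscle. Thbs4 and Aqp7 are high in all 5 diabetic arrays, Spp1 in all but replicate 5, and Notch1 is low in the normal arrays.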

How the data were processed

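RNA of 20 rat leg muscle samples was measured on 1 array each. The authors deposited 1 MAS5 signal intensity per probe set and array, per the submitters' processing notes. The sources used here give neither the MAS5 version nor a genome build. Array means trimmed by 2% at each end lay between 2503 and 2506, so no further normalization was applied. The number of arrays limits the precision. Of 8799 probe sets, 59 controls were left out; those above their array's 40th percentile in at least 5 of 20 arrays were tested (6027). The platform annotation gives 7018 probe sets 1 symbol, 308 several and does not list 1473; the probe set of highest mean signal stands for a gene with several.

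Group means of log2(signal + 16) were fitted with limma 3.58.1 (R 4.3.3) to all 20 arrays, and p-values of 6 two-sided comparisons were adjusted by Benjamini-Hochberg over 6027 probe sets at 0.05. Tested on simulated data for diabetic against normal muscle with 200 of 6027 probe sets changed, the fit recovered 28% of 2-fold and 81% of 4-fold changes, with 7 false calls. The simulated noise was independent between probe sets, with a single spread per probe set in all groups and no differences in RNA quality. These counts hold for such noise only. Named genes were every member, each listed gene that passed (or the 2 of smallest p), and the 5 genes most correlated with a member that passed. Members and lists were chosen with earlier results of these data known. Alternatives were other pseudocounts, no filter, quantile normalization, a replicate block, 3′/5′ ratios as covariates, array weights, only the groups compared, and fits leaving out arrays.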

Additional observations from a re-analysis of the deposited data

Results flagged for a closer look

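In 4 of 52 probe set and group combinations of 5 arrays, 1 array lay far from the other 4, where chance gives about 1 in 20. Esm1 read 596.7 in normal replicate 5 and 1071.7 to 1259.5 in the other normal arrays. Kdr read 431.6 in the same array and 688.4 to 784.7 in the other normal arrays. Aqp1 read 4176.9 in diabetic replicate 5 and 9890.4 to 12414.6 in the other diabetic arrays. The Vegfa probe set L20913_s_at read 177.3 in treated diabetic replicate 3 and 752 to 1176.7 in the other treated diabetic arrays.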

How the results depend on the processing

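Esm1 kept its direction in diabetic against normal and in treated diabetic against diabetic muscle under every alternative run, and its adjusted p passed 0.05 in all of them except without diabetic replicates 1 and 3. Leaving out 1 array at a time gave Esm1 changes of 1.76 to 2.13 and -2.25 to -1.90 in these 2 comparisons. The number of member probe sets called in diabetic against normal muscle, 1 of 11, became 3 with the Gapdh ratio as covariate, 4 without the 3 arrays of high Gapdh ratio, 3 with array weights and 0 without diabetic replicates 1 and 3, and ran between 1 and 2 when 1 array was left out; the added calls were Vegfa probe sets. The same fits called 282, 464, 515 and 3 of all probe sets in place of 110. In treated diabetic against diabetic muscle the count became 0 without diabetic replicates 1 and 3, where 1 of all probe sets was called. In treated diabetic against normal muscle it became 3 without the 3 arrays (Pecam1 at -2.68 and Vegfa rc_AA850734_at and M32167_g_at at -2.22 and -3.14; 359 of all were called). For the interaction it became 1 with array weights, for Esm1 at -1.80 (adjusted p = 0.0484). The Esm1 difference of treated diabetic from normal muscle, -0.12, turned to 0.19 without the 3 arrays, 0.0028 with array weights and 0.051 without treated diabetic replicate 1; leaving out 1 array at a time gave values between -0.31 and 0.051. Same-numbered samples of compared groups correlated between -0.28 and 0.62 in their deviations from group means, so the numbers were not taken as pairs. With the replicate block, Esm1 gave adjusted p = 0.00683 and 0.00985 in the first 2 comparisons, and 1 member was called in each; among the further genes only Plat lost its call (adjusted p = 0.0671). The cause of these changes was not tested. Of 1540 member values under alternatives, 1423 kept direction and side of the threshold. A further 99 changed direction, 0 of them past the threshold in the limma fits, where 12 values gained a call and 2 lost it. Esm1 alone was called in the main fit, so for the other probe sets keeping that side means staying uncalled.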
